A study of Danio rerio with 8 samples.

Results

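Microtubule motors and tubulins are the machinery of intracellular transport, and the genes for them were followed here in RNA sequencing of brains that lack saposins. The group holds every gene whose symbol in the deposited annotation begins as a kinesin, a kinesin light chain, a cytoplasmic dynein or dynactin subunit, an alpha-, beta- or gamma-tubulin (with the gamma-tubulin complex proteins), a classical microtubule-associated protein or a stathmin. The symbols gave 102 of the 22871 genes counted: 46 kinesins and kinesin partners, 19 dynein and dynactin genes, 21 tubulin genes and 16 genes for associated proteins. The rule itself uses no measured value, although the genes were chosen with earlier results of these data known. The gene symbol *kif5ba* stands for a pair of loci, which were kept apart by their Ensembl identifiers.

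The study made *psap* KO zebrafish to model combined saposin deficiency, a lysosomal storage disease in which sphingolipids build up. The brains came from homozygous *psap* KO fish (4 libraries) and from their WT siblings (4 libraries), all of the TuAB strain, untreated and 4 months post-fertilization (mpf), the symptomatic stage in this model, with 3 brains pooled in each library. The *psap* KO line descends from a single fish that carried a CRISPR-Cas9 allele with a premature stop codon ahead of the main saposin domains, so the genotype comparison rests on 1 allele. The *psap* transcript averaged 412.5 ± 29.1 CPM (counts scaled to library size with TMM factors; SD, n = 4) in *psap* KO brains and 378 ± 30.5 CPM (SD, n = 4) in WT brains, so the level of the transcript does not check the labels for an allele that acts through its stop codon.

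Each library held between 17562422 and 25127578 counts in *psap* KO brains and between 15332163 and 23480758 in WT brains, and the 102 genes took 1.63 to 1.72% of the counts in *psap* KO libraries and 1.74 to 1.84% in WT libraries. Among replicates, *psap* KO replicate 4 stood apart: over all genes its chi-square per degree of freedom was 17.9 to 30.25 against the other *psap* KO libraries, which had 7.25 to 9.08 among themselves, while WT libraries had 5.21 to 13.8. WT replicate 1 stood apart in a skeletal muscle list, which summed to 54.2 to 79.6 CPM in *psap* KO libraries, 890 CPM in WT replicate 1 and 113 to 127 CPM in the other WT libraries. Markers of brain cells were present in both genotypes, and marker lists of several cell types moved with the genotype. Genes of these lists are counted as higher or lower at an adjusted p under 0.05. By that measure 22.3% of all genes tested were higher and 18.5% lower. The summed level of a pan-neuronal list was 9030 to 9671 CPM in *psap* KO brains against 13281 to 14222 CPM in WT brains, with 23 of 28 genes lower and 2 higher. A microglia and macrophage list summed to 3800 to 4831 CPM in *psap* KO brains against 658 to 812 CPM in WT brains, with 33 of the 34 genes tested higher. An oligodendrocyte and myelin list summed to 3510 to 6326 CPM in *psap* KO brains against 8488 to 10618 CPM in WT brains, with 7 of 20 genes higher and 3 lower. Among the lower genes was *mbpa*, a myelin basic protein gene, at 1293 ± 272 CPM in *psap* KO and 6323 ± 699 CPM in WT brains (SD, n = 4 each). The other copy, *mbpb*, was among the higher genes, at 356 ± 142 CPM in *psap* KO and 134 ± 22.6 CPM in WT brains (SD, n = 4 each). The mean list sums were 4774 CPM in *psap* KO and 9652 CPM in WT brains, so the lower sum was about the size of the fall in *mbpa*. The median log2 change (*psap* KO over WT) of the 20 genes was 0.25. A radial astroglia list summed to 6740 to 8101 CPM in *psap* KO brains against 6095 to 7041 CPM in WT brains, with 10 of 17 genes higher and 2 lower. Of the tested genes of the pan-neuronal and microglia lists, *grn2* was at 0 in at least 1 WT library and no other gene was at 0 in any library.

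Kinesins are ATP-driven motors that mostly walk toward the plus ends of microtubules and carry vesicles, organelles and mRNA outward along axons, while cytoplasmic dynein, with its cofactor dynactin, carries cargo back toward the cell body. The track itself is a polymer of alpha- and beta-tubulin that is nucleated by gamma-tubulin complexes, bundled by the MAP1, MAP2 and tau proteins, and shrunk by stathmins, which hold free tubulin dimers. Neurons depend on this system for their axons and synapses, and oligodendrocytes use it to move myelin basic protein mRNA into their processes.

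Of the 102 genes, 100 had enough counts to be tested across genotypes, and 40 of them passed: 16 were higher in *psap* KO brains and 24 lower. Here and below, a gene passed, rose or fell where its adjusted p was under 0.05 in the quasi-likelihood test of edgeR, fitted over all genes. Changes are on the log2 scale, *psap* KO over WT. The standard error (SE), where given, was derived from that test, as the size of the change divided by the square root of its F statistic. Over all 21140 genes tested, 40.8% passed, with 22.3% higher and 18.5% lower, so the share of the group that passed was near that of the genome. The median log2 change was -0.07 for the 100 genes and 0.02 for all genes tested. The changes were small: the range ran from -0.89 to 1.53 on the log2 scale, and 2 genes, *tubb6* and *tuba8l*, passed with more than a 2-fold rise, while none passed with more than a 2-fold fall (9.37% and 1.14% of all genes tested). With DESeq2's size factors in edgeR the split was 12 higher and 29 lower, beside 21.3% higher and 19.9% lower over all genes. Without *psap* KO replicate 4 it was 13 higher and 29 lower, beside 21% and 18.1% over all genes. The libraries of the genotypes did not overlap for 12 higher and 23 lower genes, against 21.9% and 18.3% of all genes tested. In RNA of whole brains, fewer cells of a type and less RNA per cell cannot be told apart.

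By class, 13 of 45 kinesins fell and 4 rose, with a median log2 change of -0.05. Among the dynein and dynactin genes 4 of 19 rose and 1 fell (median -0.04), and among the tubulin genes 5 of 20 rose and 3 fell (median -0.10). The associated proteins had the most changes for their number, with 7 of 16 lower and 3 higher (median -0.19). These are counts beside the background above and no test between classes was made. The genes left untested for low counts were *kif28*, with 6 to 9 counts in *psap* KO and 5 to 11 in WT libraries, and the alpha-tubulin gene *tuba7l*, with 5 to 8 counts in *psap* KO and 7 to 22 in WT libraries.

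Summed over the class, kinesin transcripts stood at 4643 to 5049 CPM in *psap* KO brains against 5493 to 6064 CPM in WT brains, a ratio of 0.837. The associated proteins summed to 6357 to 6891 CPM in *psap* KO brains against 7280 to 7970 CPM in WT brains (ratio 0.870). Both class sums were lower in every *psap* KO library than in any WT library. The sums follow their most abundant genes. Mean sums were 4897 CPM in *psap* KO and 5853 CPM in WT brains for kinesins, and 6611 and 7598 CPM for associated proteins. Of these, *kif1b* held 790 and 1161 CPM, *kif1aa* 892 and 1065 CPM, *kif1ab* 721 and 829 CPM, and *map1ab* 2465 and 3133 CPM. Within the associated proteins, the 8 structural proteins summed to 4235 to 4877 CPM in *psap* KO brains against 5334 to 5865 CPM in WT brains (ratio 0.818). The 8 stathmins summed to 2005 to 2122 CPM in *psap* KO brains against 1946 to 2168 CPM in WT brains (ratio 1.01), with overlap. Dynein and dynactin genes summed to 1606 to 1659 CPM in *psap* KO brains against 1601 to 1707 CPM in WT brains, and the tubulin genes to 2800 to 3901 CPM in *psap* KO brains against 3046 to 3473 CPM in WT brains, and for both classes the libraries overlapped. For comparison, the pan-neuronal sum had a ratio of 0.690, and what part of the lower kinesin and associated sums goes with it was not tested.

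**Figure D1:**
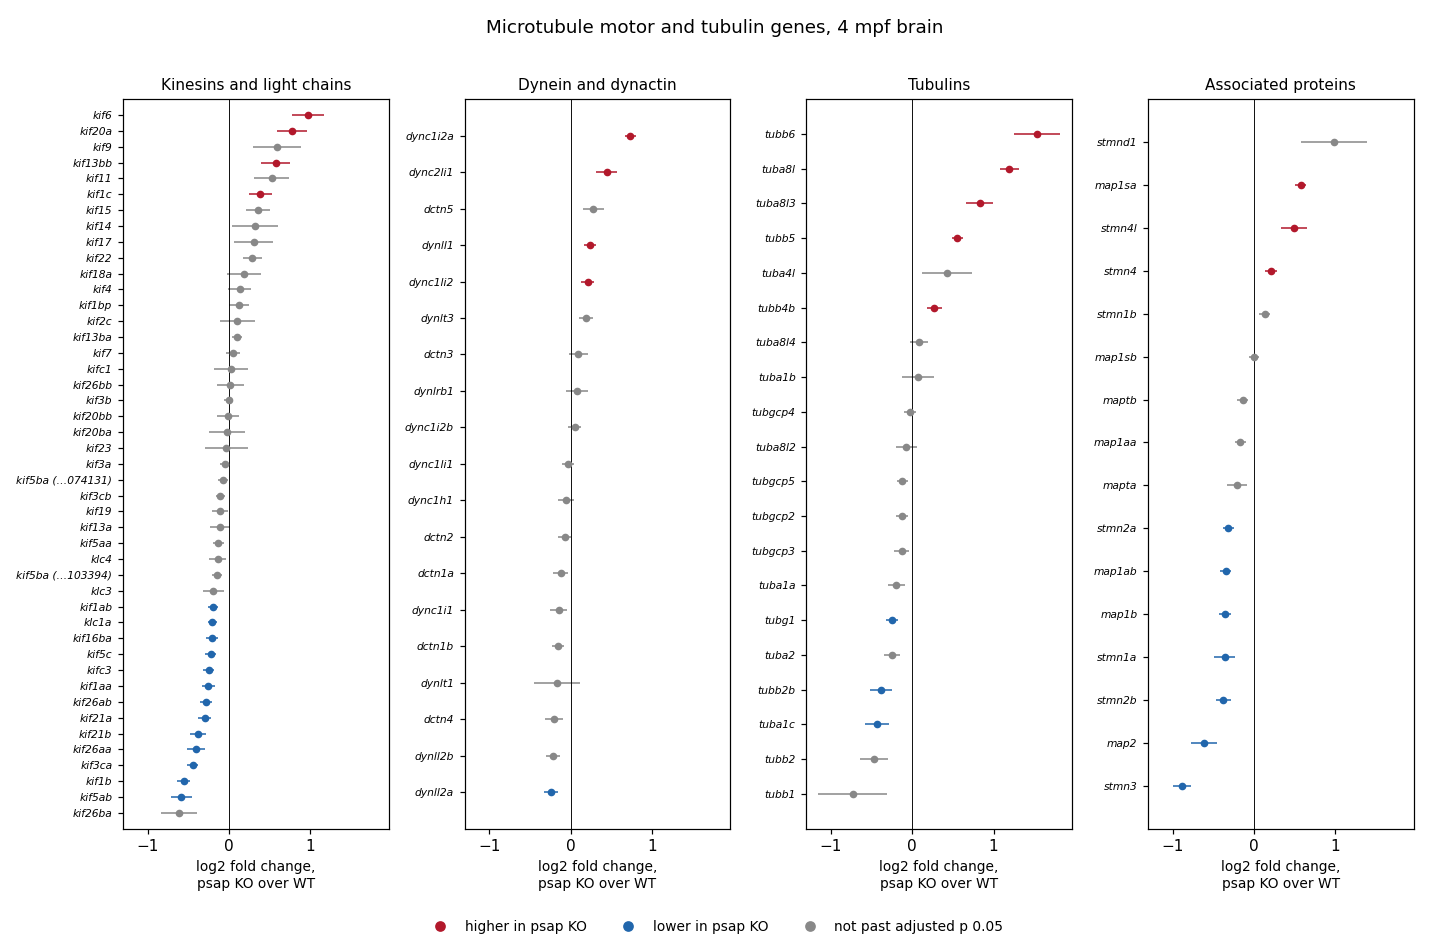
Change on the log2 scale, *psap* KO over WT, for each of the 100 genes tested (x axis, 4 libraries per genotype), in a panel for each class, with bars of ± 1 standard error and colour for genes with an adjusted p under 0.05. Kinesins and associated proteins that passed lie mostly left of 0, where they are lower in *psap* KO brains, with *stmn3* farthest at -0.89, and *tubb6* at 1.53 and *tuba8l* at 1.2 stand farthest to the right among the tubulins.

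Of the 13 kinesins that fell, 8 belong to the transport families kinesin-1 (with its light chains), kinesin-2 and kinesin-3. Falls came in 2 of 5 kinesin-1 heavy chains, 1 of 3 light chains, 1 of 5 kinesin-2 and 4 of 8 kinesin-3 genes tested. Outside these families the falls were uneven. None of the 12 mitotic and cytokinetic kinesins or the 4 tied to cilia or Hedgehog signaling fell. Of the remaining 7 kinesins 5 fell, against 18.5% of all genes tested. In the kinesin-3 family, whose members carry synaptic vesicle precursors and other vesicles, 4 of the 8 genes tested fell and 2 rose. *kif1b* (ENSDARG00000037020, chromosome 23, positions 29396182 to 29505645, minus strand; the annotation does not give its build) encodes a motor for synaptic vesicle precursors and mitochondria that zebrafish oligodendrocytes need to localize *mbp* mRNA. It was measured in replicates 1 to 4 at 831, 854, 793 and 681 CPM in *psap* KO brains against 1183, 1199, 1216 and 1048 CPM in WT brains. Every *psap* KO library was below every WT library, with a mean of 790 ± 77.0 CPM in *psap* KO and 1161 ± 76.9 CPM in WT (SD, n = 4 each) and a log2 change of -0.56 (SE 0.082, adjusted p = 0.000182).

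The zebrafish copies of KIF1A, the main axonal motor for synaptic vesicle precursors, fell by less. *kif1aa* had 925, 961, 921 and 760 CPM in *psap* KO brains against 1083, 1126, 1025 and 1025 CPM in WT brains, and *kif1ab* had 706, 742, 707 and 729 CPM in *psap* KO brains against 819, 852, 874 and 773 CPM in WT brains. Neither gene's libraries overlapped, and the log2 changes were -0.26 (SE 0.0793, adjusted p = 0.0211) for *kif1aa* and -0.20 (SE 0.0615, adjusted p = 0.0196) for *kif1ab*. The call for *kif1aa* was lost without WT replicate 1 (adjusted p = 0.0514) or WT replicate 2 (0.0633), and that for *kif1ab* without *psap* KO replicate 3 (0.0582), WT replicate 2 (0.0555) or WT replicate 3 (0.0642). The fourth of these genes that fell was *kif16ba*, an endosomal kinesin named here after its values were seen, with a log2 change of -0.21 and an adjusted p of 0.0413, a call kept under 7 of 15 alternatives and lost without *psap* KO replicate 2, 3 or 4 or WT replicate 1, 2 or 3, with upper-quartile scaling and with a mean count of at least 50.

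The kinesin-3 genes that rose had low counts. *kif13bb* had 7.41, 6.20, 7.29 and 5.36 CPM in *psap* KO brains against 5.67, 4.25, 3.56 and 4.14 CPM in WT brains. WT replicate 1 lay above *psap* KO replicate 4, and the log2 change was 0.57 (SE 0.174, adjusted p = 0.0192). Leaving out *psap* KO replicate 1, *psap* KO replicate 3 or WT replicate 3 ended that call (adjusted p = 0.0507, 0.0577 and 0.0623). *kif1c*, a motor for secretory vesicles, averaged 10.6 ± 0.947 CPM in *psap* KO and 8.15 ± 1.53 CPM in WT brains (SD, n = 4 each), with a log2 change of 0.39 and an adjusted p of 0.0478. It overlaps *camta2* on the other strand, and its call was lost without *psap* KO replicate 1, 2 or 3 or WT replicate 3 or 4 (adjusted p from 0.0632 to 0.124), and with RLE scaling (0.0638), no filter on low counts (0.0515) or DESeq2 (0.0574).

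Kinesin-1 is the conventional motor, a dimer of heavy chains that binds cargo in part through light chains. None of its 5 heavy chain genes rose and 2 fell. *kif5ab*, a copy of the neuronal heavy chain KIF5A that is mutated in human hereditary spastic paraplegia, had 53.0, 46.1, 57.4 and 40.9 CPM in *psap* KO brains against 87.3, 76.2, 73.9 and 58.5 CPM in WT brains. The genotypes did not overlap, although the highest *psap* KO and the lowest WT library were close, and the log2 change was -0.59 (SE 0.131, adjusted p = 0.00411). The gene overlaps *igsf8* on the other strand. The other copy, *kif5aa*, was measured at 436 ± 18.7 CPM in *psap* KO and 478 ± 31.3 CPM in WT brains (SD, n = 4 each) and did not pass, with a log2 change of -0.13 (SE 0.0661, adjusted p = 0.134).

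*kif5c*, another neuronal heavy chain, had 63.3, 63.7, 66.3 and 63.9 CPM in *psap* KO brains against 71.8, 81.3, 75.0 and 72.9 CPM in WT brains, with no overlap (log2 change -0.23, SE 0.0629, adjusted p = 0.0119). The heavy chain *kif5ba* at ENSDARG00000103394 on chromosome 12 had a log2 change of -0.15 (adjusted p = 0.0657) and the one at ENSDARG00000074131 on chromosome 2 of -0.07 (adjusted p = 0.345). The first of these passed without *psap* KO replicate 4 (adjusted p = 0.0178). Of the 3 light chain genes, *klc1a* fell, with 153, 150, 157 and 164 CPM in *psap* KO brains against 182, 180, 180 and 177 CPM in WT brains. All its *psap* KO libraries lay under all WT libraries (log2 change -0.20, SE 0.056, adjusted p = 0.0112), and *klc3* and *klc4* did not pass.

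The kinesin-2 motors, which drive intraflagellar transport as *kif3a* with *kif3b* and carry vesicles in neurons with the *kif3c* subunit, changed in 1 of 5 genes. *kif3ca* had 58.0, 56.3, 53.7 and 60.5 CPM in *psap* KO brains against 78.5, 83.5, 74.8 and 74.3 CPM in WT brains. The gap between the genotypes was wider than the spread within either, with a log2 change of -0.44 (SE 0.0671, adjusted p = 0.00022). The core subunit *kif3a* was measured at 113 to 131 CPM in *psap* KO and 125 to 129 CPM in WT brains, with a log2 change of -0.05 (adjusted p = 0.527). The other members of the family, *kif3b*, *kif3cb* and *kif17*, did not pass either.

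Of the 7 kinesins outside the transport families and outside the cell division and cilia groups, 5 fell and none rose. These are named here after their values were seen except for *kif21b* and *kif26aa*. *kif21b*, a kinesin-4 motor that limits microtubule growth in neurons, had 68.0, 59.8, 63.1 and 54.0 CPM in *psap* KO brains against 90.2, 87.8, 69.8 and 71.2 CPM in WT brains, without overlap (log2 change -0.38, SE 0.101, adjusted p = 0.00938). Its relative *kif21a* had a log2 change of -0.30 (adjusted p = 0.00713). *kif26aa*, which encodes a kinesin-like protein without motor activity in mammals, had 30.2, 33.7, 32.4 and 23.5 CPM in *psap* KO brains against 43.6, 37.7, 40.6 and 37.1 CPM in WT brains, also without overlap (log2 change -0.41, SE 0.109, adjusted p = 0.00933). The log2 change was -0.28 (adjusted p = 0.00974) for *kif26ab* and -0.25 (adjusted p = 0.0122) for the minus-end-directed *kifc3*. *kif26ba* had the lowest log2 change of any kinesin, -0.62, but its libraries overlapped and it missed the threshold (SE 0.221, adjusted p = 0.0553). Its *psap* KO replicate 4 stood at 48.2 CPM against 83.1 to 96.0 CPM in the other *psap* KO libraries and 95.6 to 148 CPM in WT libraries, and it passed without that library (adjusted p = 0.0299).

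**Figure D2:**
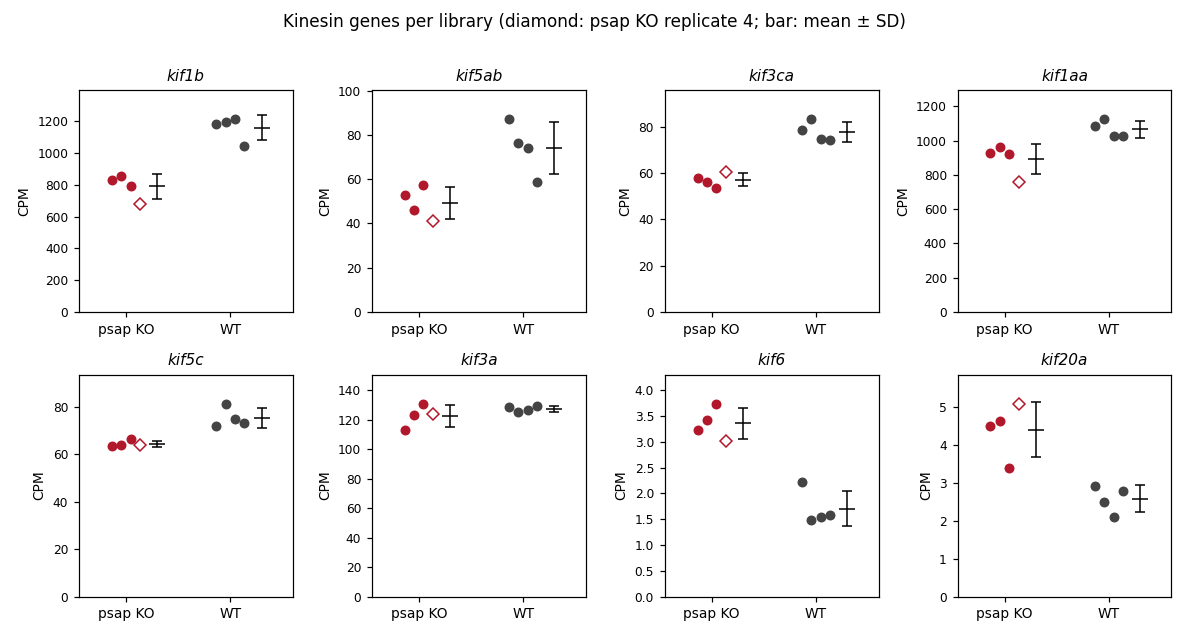
CPM (y axis, from 0) of 8 kinesins in each library, *psap* KO left of WT, with points for the 4 libraries and bars for the mean ± SD. *kif1b*, *kif5ab*, *kif3ca*, *kif1aa* and *kif5c* lie lower in *psap* KO brains without overlap, *kif3a* overlaps between the genotypes, and *kif6* and *kif20a* lie higher in *psap* KO brains at levels under 6 CPM.

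None of the kinesins with roles in cell division and cilia passed as lower. The SE of the mitotic and cytokinetic kinesins ran from 0.117 to 0.282, against 0.056 for *klc1a*. A fall as small as that of *klc1a* (-0.20) could therefore be missed among them. Of 12 mitotic and cytokinetic kinesins, 1 rose, with a median log2 change of 0.15 and a range from -0.03 to 0.78. That gene was *kif20a*, which acts in the final separation of daughter cells, with 81, 105, 70 and 133 counts in *psap* KO brains against 54, 37, 48 and 60 counts in WT brains. Its levels of 3.40 to 5.09 CPM in *psap* KO brains lay above the 2.11 to 2.92 CPM of WT brains (log2 change 0.78, SE 0.186, adjusted p = 0.00527), and it overlaps *cdc23* on the other strand. *kif11*, the motor that holds spindle poles apart, had 3.90, 5.59, 4.96 and 8.31 CPM in *psap* KO brains against 4.1, 3.31, 4.57 and 3.86 CPM in WT brains. These libraries overlapped and the gene did not pass (log2 change 0.52, adjusted p = 0.0749), although it did without *psap* KO replicate 1 (adjusted p = 0.0227). *kif23*, a motor of the spindle midzone, had a log2 change of -0.03 (adjusted p = 0.935). A list of 35 proliferation genes tested beside them had 4 genes higher and 1 lower, both under the 22.3% and 18.5% of all genes tested. It summed to 245 to 328 CPM in *psap* KO and 230 to 257 CPM in WT brains.

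Of 4 kinesins tied to cilia or Hedgehog signaling, 1 rose. *kif6*, which zebrafish need for a straight spine, had 58, 78, 77 and 79 counts in *psap* KO brains against 41, 22, 35 and 34 counts in WT brains. That is 3.03 to 3.74 CPM in *psap* KO brains and 1.48 to 2.21 CPM in WT brains, without overlap (log2 change 0.97, SE 0.201, adjusted p = 0.00201). *kif9* had a log2 change of 0.59 with an adjusted p of 0.129, and *kif7* and *kif19* did not pass. A list of motile cilia genes rose in 30 of 40 cases and fell in none, beside 22.3% higher and 18.5% lower over all genes tested. Its sum was 495 to 514 CPM in *psap* KO and 366 to 393 CPM in WT brains, and its part in the *kif6* result was not tested.

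Dynein and dynactin showed few changes. All 6 dynactin genes missed the threshold, among them *dctn1a* (log2 change -0.12, adjusted p = 0.326) and *dctn1b* (-0.16, adjusted p = 0.111), the copies of the p150Glued subunit. Without WT replicate 4 both copies passed, with adjusted p of 0.0414 for *dctn1a* and 0.0404 for *dctn1b*. The heavy chain *dync1h1*, which holds the motor domain, had 446, 419, 388 and 365 CPM in *psap* KO brains against 484, 456, 380 and 363 CPM in WT brains. The libraries overlapped over nearly their whole range, with a log2 change of -0.06 (SE 0.0989, adjusted p = 0.686).

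The intermediate chain *dync1i2a* (ENSDARG00000078386) was the dynein gene with the largest change. Intermediate chains link the heavy chain to dynactin and cargo. The gene had 56.0, 55.1, 54.2 and 60.9 CPM in *psap* KO brains against 36.1, 32.7, 32.6 and 34.6 CPM in WT brains. The groups were far apart for their spread, with means of 56.5 ± 2.96 CPM in *psap* KO and 34 ± 1.69 CPM in WT (SD, n = 4 each), a log2 change of 0.73 (SE 0.0702) and an adjusted p of 6.29e-06. The other copy, *dync1i2b*, was measured at 47.6 to 56.8 CPM in *psap* KO and 45.4 to 51.9 CPM in WT brains (log2 change 0.05, adjusted p = 0.644), and the other intermediate chain, *dync1i1*, had a log2 change of -0.15 (adjusted p = 0.268).

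The smaller changes among the dynein genes were less stable. The LC8 light chain *dynll1* had 71.8, 71.5, 71.6 and 77.1 CPM in *psap* KO brains against 64.8, 55.6, 67.3 and 60.2 CPM in WT brains, without overlap (log2 change 0.23, SE 0.0723, adjusted p = 0.0204). Its relative *dynll2a* went the other way, with 75.6, 75.9, 78.5 and 89.7 CPM in *psap* KO brains against 85.6, 89.6, 95.0 and 107 CPM in WT brains. Here *psap* KO replicate 4 lay within the WT range (log2 change -0.24, SE 0.0844, adjusted p = 0.0382). The light intermediate chain *dync1li2* had 106 to 128 CPM in *psap* KO and 96.1 to 109 CPM in WT brains and rose by 0.21 on the log2 scale with overlapping libraries (adjusted p = 0.0433). *dync2li1*, of the dynein-2 motor that returns cargo along cilia, rose by 0.44 (SE 0.13, adjusted p = 0.0162). The call for *dynll1* was lost without WT replicate 2 or 4 (adjusted p = 0.0671 and 0.0597), that for *dync2li1* without *psap* KO replicate 4 or WT replicate 3 (0.0529 and 0.0516). The call for *dynll2a* was lost without *psap* KO replicate 1, 2 or 3 or WT replicate 3 or 4 (adjusted p from 0.0789 to 0.104), and with upper-quartile scaling (0.0678) or a mean count of at least 50 (0.0526). That for *dync1li2* was lost without *psap* KO replicate 1 or 4 or WT replicate 1, 2 or 3 (from 0.0646 to 0.115), and with RLE scaling (0.065) or DESeq2 (0.0584).

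Among the tubulins *tuba8l*, *tuba8l3*, *tubb5*, *tubb6* and *tubb4b* rose, and *tuba1c*, *tubb2b* and *tubg1* fell. *tuba8l* (ENSDARG00000042708), an alpha-tubulin gene on chromosome 8, had 28.5, 27.5, 31.0 and 37.5 CPM in *psap* KO brains against 15, 14.3, 13.2 and 12 CPM in WT brains. Each *psap* KO library had more than any WT library, with a log2 change of 1.2 (SE 0.114, adjusted p = 5.83e-06). *tubb5*, a beta-tubulin found in most cell types, had 329, 317, 298 and 361 CPM in *psap* KO brains against 222, 212, 222 and 231 CPM in WT brains. Its means were 326 ± 26.6 CPM in *psap* KO and 222 ± 7.62 CPM in WT (SD, n = 4 each) with no overlap (log2 change 0.56, SE 0.0691, adjusted p = 4.89e-05).

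*tuba8l3* had 49.6, 60.0, 62.7 and 91.4 CPM in *psap* KO brains against 34.8, 34.8, 40.2 and 38.9 CPM in WT brains. It rose without overlap and with a wide spread among *psap* KO libraries (log2 change 0.83, SE 0.163, adjusted p = 0.00249). *tubb6*, named here after its values were seen because its level fell under the minimum for named genes, had 28, 36, 41 and 56 counts in *psap* KO brains against 15, 6, 13 and 15 counts in WT brains. That is the largest log2 change among the 100 genes tested, 1.53 (SE 0.283, adjusted p = 0.000951), at 1.56 to 2.14 CPM in *psap* KO and 0.405 to 0.810 CPM in WT brains, and the gene overlaps *eci2* on the other strand. Tubulin genes are close in sequence, and how reads that match several of them were counted is not given in the sources used here, so the share of each gene within the family is uncertain.

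In the alpha- and beta-tubulins that fell, *psap* KO replicate 4 was far from the other *psap* KO libraries. *tuba1c* had 229, 262, 280 and 386 CPM in *psap* KO brains against 348, 380, 404 and 431 CPM in WT brains. *tubb2b* had 293, 334, 332 and 485 CPM in *psap* KO brains against 442, 460, 501 and 488 CPM in WT brains. In both genes *psap* KO replicates 1 to 3 were below every WT library and *psap* KO replicate 4 was among the WT values. The log2 changes were -0.43 (SE 0.143, adjusted p = 0.0341) for *tuba1c* and -0.39 (SE 0.135, adjusted p = 0.0412) for *tubb2b*. Without *psap* KO replicate 4 the adjusted p was 9.6e-05 for *tuba1c* and 2.5e-05 for *tubb2b*. Leaving out *psap* KO replicate 1, 2 or 3 or WT replicate 2, 3 or 4 ended the call for *tuba1c* (adjusted p from 0.0604 to 0.0857), and leaving out any library but *psap* KO replicate 4 ended that for *tubb2b* (from 0.0552 to 0.102), as did upper-quartile scaling (0.0615).

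*tubb2* followed the same order of libraries, with 75.1, 81.6, 84.4 and 136 CPM in *psap* KO brains against 121, 124, 145 and 134 CPM in WT brains. It missed the threshold over all 8 libraries (log2 change -0.47, SE 0.176, adjusted p = 0.0595) and passed without *psap* KO replicate 4 (log2 change -0.70, adjusted p = 8.7e-06). *tuba1a*, the alpha-tubulin of growing neurons, behaved likewise, with 211, 218, 226 and 290 CPM in *psap* KO brains against 242, 263, 285 and 291 CPM in WT brains. Its log2 change was -0.20 (adjusted p = 0.145) over all libraries and -0.31 (adjusted p = 0.00317) without *psap* KO replicate 4. *tuba1b*, which lies next to *tuba1a* on chromosome 23, had 116 to 202 CPM in *psap* KO and 110 to 171 CPM in WT brains (log2 change 0.07, adjusted p = 0.793), and the value was -0.12 without *psap* KO replicate 4.

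That library was the highest *psap* KO library for 19 of the 20 tubulin genes tested, against 33.0% of all genes tested. Part of this order of libraries was also seen in WT brains. In each genotype replicate 1 was the lowest library for 9 of the 15 alpha- and beta-tubulins tested. Over all genes tested it was the lowest for 29% in *psap* KO and 25.4% in WT brains. Among WT libraries, replicate 3 was the highest for 6 of these 15 genes and replicate 4 for 5 (21.8% and 28.1% of all genes). Among the 15 alpha- and beta-tubulins, 5 were higher and 2 lower with all libraries, and 4 were higher and 5 lower without *psap* KO replicate 4. The median log2 change of these 15 was 0.07 with that library and -0.12 without it. Leaving out any other single library gave 4 or 5 higher and 0 or 1 lower. With all libraries and a term for the replicate number, 5 were higher and 5 lower. *tubb4b*, a beta-tubulin of many cell types and of cilia, had 578, 541, 603 and 754 CPM in *psap* KO brains against 472, 507, 549 and 521 CPM in WT brains, where *psap* KO replicate 2 fell within the WT range (log2 change 0.27, SE 0.0967, adjusted p = 0.0399). Without *psap* KO replicate 4 its log2 change was 0.16 and the adjusted p 0.0631, and the call was also lost without *psap* KO replicate 3 or WT replicate 1, 2 or 4 (adjusted p from 0.065 to 0.115), and with RLE scaling (0.0516). What sets *psap* KO replicate 4 apart, and why replicate 1 was often the lowest in both genotypes, was not tested.

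Gamma-tubulin, which nucleates microtubules, was measured at 38.5, 33.6, 36.5 and 39.6 CPM for *tubg1* in *psap* KO brains against 45.8, 42.5, 43.7 and 44.3 CPM in WT brains. The libraries did not overlap (log2 change -0.25, SE 0.0727, adjusted p = 0.0151), and the call was lost without *psap* KO replicate 2 (adjusted p = 0.0511). The 4 gamma-tubulin complex genes had log2 changes from -0.13 to -0.03 and none passed.

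**Figure D3:**
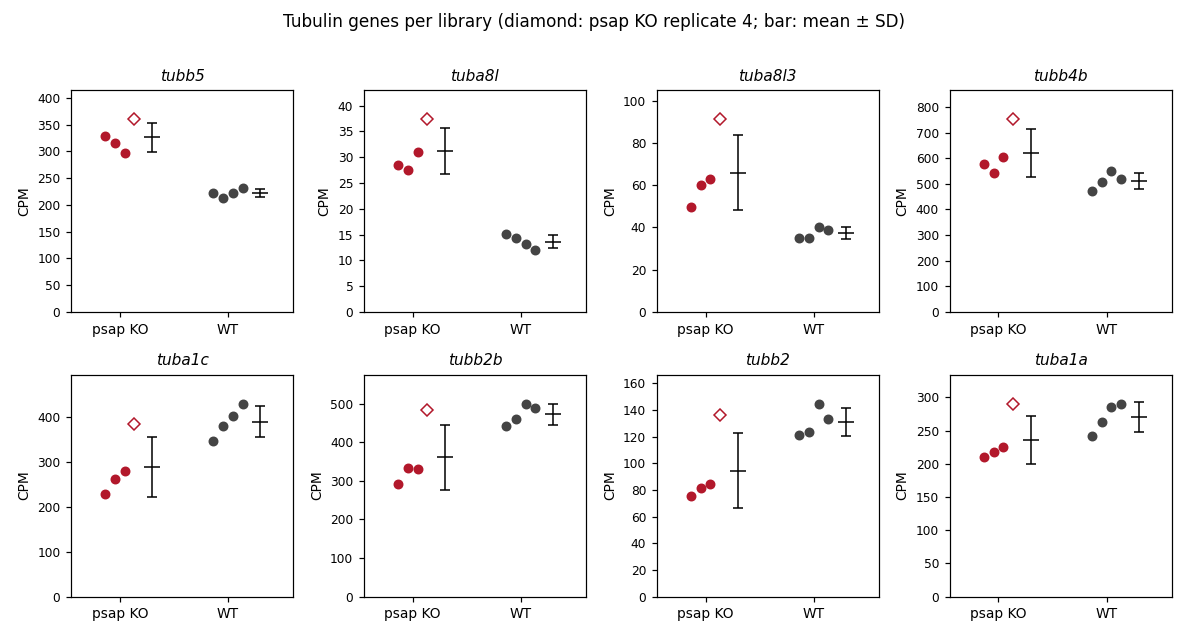
CPM (y axis, from 0) of 8 tubulin genes in each library, *psap* KO left of WT, with bars for the mean ± SD and *psap* KO replicate 4 drawn as a diamond. *tubb5*, *tuba8l* and *tuba8l3* lie higher in *psap* KO brains without overlap, and for *tuba1c*, *tubb2b*, *tubb2* and *tuba1a* the diamond lies well above the other *psap* KO libraries and beside the WT libraries.

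Structural microtubule-associated proteins fell in 3 of 8 genes and rose in 1, beside 18.5% lower and 22.3% higher over all genes tested. *map1ab*, a copy of MAP1A that binds microtubules in mature neurons, had 2499, 2612, 2409 and 2340 CPM in *psap* KO brains against 2930, 3086, 3394 and 3123 CPM in WT brains. There was no overlap, and the means of 2465 ± 118 CPM in *psap* KO and 3133 ± 193 CPM in WT (SD, n = 4 each) gave a log2 change of -0.35 (SE 0.0694, adjusted p = 0.00168). *map1b*, known from growing axons, had 383, 431, 371 and 365 CPM in *psap* KO brains against 471, 475, 540 and 491 CPM in WT brains, again without overlap (log2 change -0.35, SE 0.0729, adjusted p = 0.00212).

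*map2*, the protein that marks dendrites, had 185, 207, 185 and 115 CPM in *psap* KO brains against 294, 276, 255 and 236 CPM in WT brains. All *psap* KO libraries were lower, and *psap* KO replicate 4 was the lowest of them (log2 change -0.62, SE 0.16, adjusted p = 0.0115). The tau genes *mapta* and *maptb*, whose protein is known from axons, had log2 changes of -0.21 (adjusted p = 0.197) and -0.14 (adjusted p = 0.116) and did not pass. The second copy of MAP1A, *map1aa*, had a log2 change of -0.17 (SE 0.0651, adjusted p = 0.0562) and passed without *psap* KO replicate 2 (adjusted p = 0.0317).

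The member of this group that rose was *map1sa*, a copy of MAP1S, which in mammals is expressed in many tissues and has been tied to autophagosome transport. It had 46.4, 48.4, 47.7 and 43.9 CPM in *psap* KO brains against 30.1, 31.4, 32.6 and 30.8 CPM in WT brains. The means were 46.6 ± 1.96 CPM in *psap* KO and 31.2 ± 1.07 CPM in WT (SD, n = 4 each) with a gap far wider than the spread (log2 change 0.58, SE 0.0677, adjusted p = 3.14e-05). The other copy, *map1sb*, had a log2 change of 0.00 (adjusted p = 0.989).

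Of 8 stathmin genes, 4 fell and 2 rose, beside 18.5% lower and 22.3% higher over all genes tested. *stmn3* (ENSDARG00000038465), a stathmin of neurons, had 43.0, 55.6, 57.4 and 64.1 CPM in *psap* KO brains against 94.2, 95.4, 111 and 107 CPM in WT brains. It had the lowest log2 change of the 100 genes tested, -0.89 (SE 0.11, adjusted p = 5.45e-05), with means of 55.0 ± 8.84 CPM in *psap* KO and 102 ± 8.5 CPM in WT (SD, n = 4 each) and no overlap. The copies of STMN2, which is enriched in axons and needed for their repair in mammals, fell together. *stmn2a* had 328, 356, 355 and 380 CPM in *psap* KO brains against 438, 423, 452 and 451 CPM in WT brains (log2 change -0.31, SE 0.0628, adjusted p = 0.00167). *stmn2b* had 82.6, 88.0, 85.5 and 63.8 CPM in *psap* KO brains against 109, 98.7, 104 and 104 CPM in WT brains (log2 change -0.38, SE 0.0933, adjusted p = 0.00605). In neither gene did the libraries of the genotypes overlap.

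The remaining stathmins had smaller or less stable differences. *stmn1a* had 6.07 to 8.75 CPM in *psap* KO and 9.50 to 10.5 CPM in WT brains (log2 change -0.36, adjusted p = 0.0406), while its copy *stmn1b* had 932 to 1059 CPM in *psap* KO and 857 to 974 CPM in WT brains and did not pass (log2 change 0.13, adjusted p = 0.136). *stmn4* had 486, 457, 504 and 463 CPM in *psap* KO brains against 371, 393, 434 and 448 CPM in WT brains, without overlap (log2 change 0.21, SE 0.0725, adjusted p = 0.0331). *stmn4l* had 127, 73.7, 113 and 82.7 CPM in *psap* KO brains against 63.3, 70.7, 74.1 and 73.0 CPM in WT brains, where *psap* KO replicate 2 fell within the WT range (log2 change 0.49, SE 0.158, adjusted p = 0.0309). Both *stmn4* and *stmn4l* overlap other genes on the other strand. The call for *stmn4* was lost without *psap* KO replicate 1 or 3 or WT replicate 1 or 2 (adjusted p from 0.0602 to 0.11) and with RLE scaling (0.0509). That for *stmn4l* was lost without *psap* KO replicate 1 or 3 or any WT library (from 0.051 to 0.0808). The call for *stmn1a* was lost without *psap* KO replicate 1 or 2 or any WT library (from 0.0563 to 0.0953) and with upper-quartile scaling (0.0571).

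**Figure D4:**
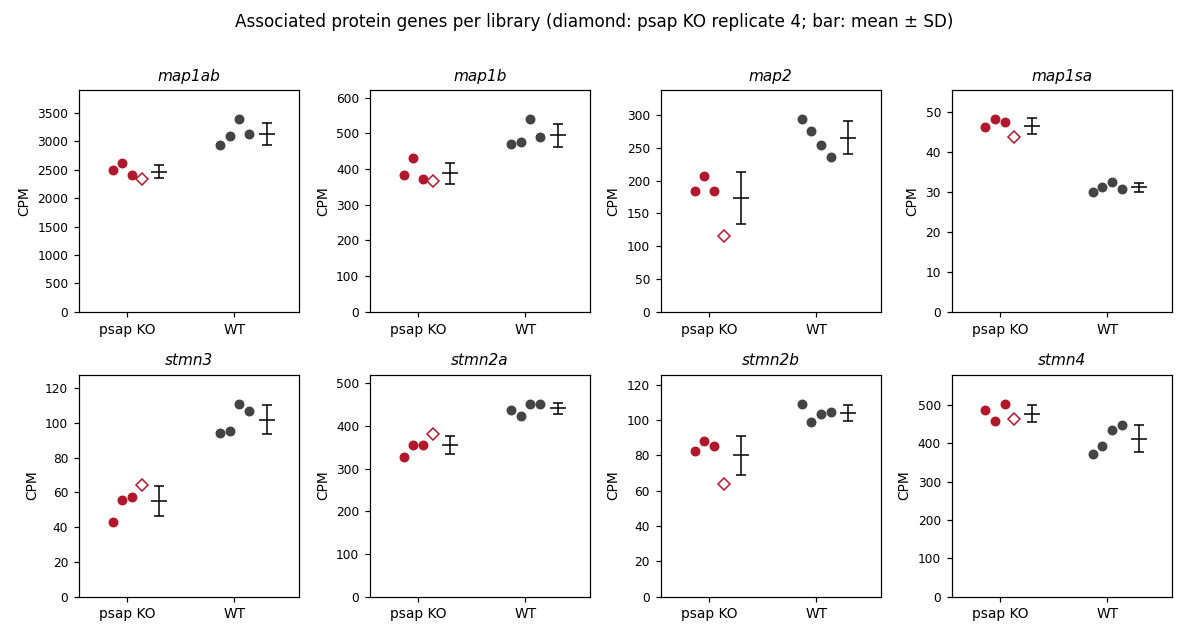
CPM (y axis, from 0) of 8 genes for microtubule-associated proteins and stathmins in each library, *psap* KO left of WT, with points for the 4 libraries and bars for the mean ± SD. *map1ab*, *map1b*, *map2*, *stmn3*, *stmn2a* and *stmn2b* lie lower in *psap* KO brains without overlap, and *map1sa* and *stmn4* lie higher.

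Zebrafish keep duplicate copies of many genes, and the copies of a pair can be set against each other within a library, which removes library scaling. The ratio of the copies was taken after the values of single genes were seen, for 16 pairs among the 102 genes. These are tested genes whose symbols differ only in a final a or b, with the 2 loci of *kif5ba* as a further pair. The a and b genes of *kif21*, *kif3* and *tuba1* were left out as separate genes. Copies with symbols of another form were not taken. In 7 pairs the ratios of the genotypes did not overlap. Of all genes tested one by one 40.3% did not overlap, but that share is for single genes, and none was computed for ratios of other gene pairs. With 4 libraries against 4 the exact two-sided permutation test cannot give less than 0.0286, which all 7 reached, and with adjustment over 16 pairs this became 0.0654, so none of the 16 pairs passed an adjusted p of 0.05. The log2 ratio of *dync1i2a* over *dync1i2b* was 0.10 to 0.21 in *psap* KO brains and -0.67 to -0.47 in WT brains, a difference of 0.68. The log2 ratio of *map1sa* over *map1sb* was -1.88 to -1.68 in *psap* KO brains and -2.41 to -2.36 in WT brains, a difference of 0.57. That of *kif26ba* over *kif26bb* was 1.09 to 1.91 in *psap* KO and 2.01 to 2.37 in WT brains, a difference of -0.67. The differences of the other pairs without overlap were -0.51 for *stmn1a* over *stmn1b*, -0.34 for *kif3ca* over *kif3cb*, 0.18 for *map1aa* over *map1ab* and 0.08 for the 2 loci of *kif5ba*. For *kif5aa* over *kif5ab* the difference was 0.45, with an overlap between the genotypes (exact p = 0.0571, 0.102 with adjustment over the pairs).

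**Figure D5:**
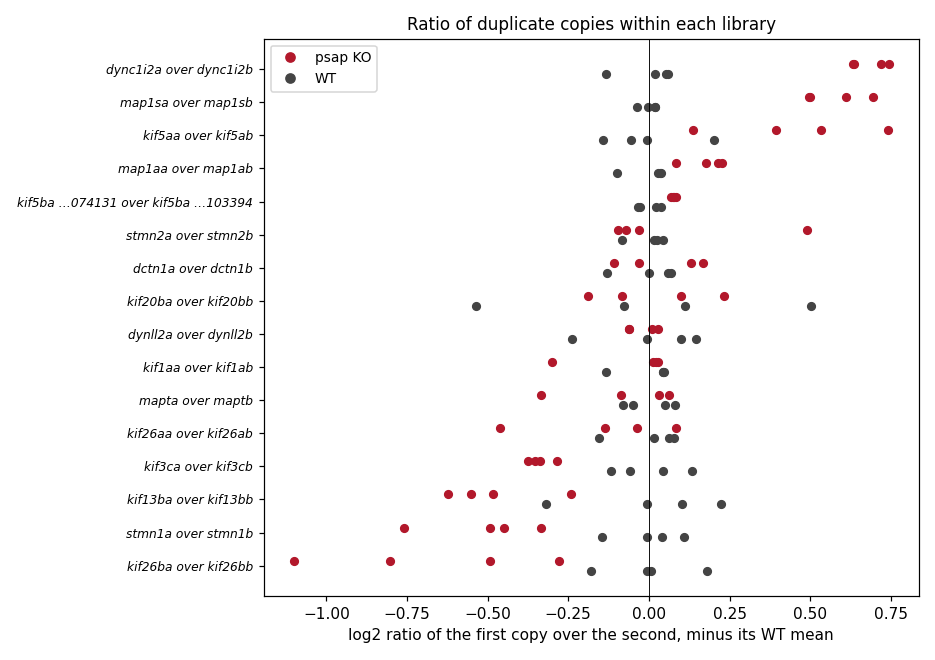
Log2 ratio of the first over the second copy (x axis, minus the mean of WT libraries) for 16 duplicate pairs, with a point for each library of *psap* KO and WT brains. *dync1i2a* over *dync1i2b* and *map1sa* over *map1sb* lie right of all WT libraries in *psap* KO brains, with mean differences of 0.68 and 0.57, and *kif26ba* over *kif26bb* and *stmn1a* over *stmn1b* lie left, with -0.67 and -0.51.

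Genes that work with these motors and tracks were read from lists written with earlier results of these data known. The counts for these lists stand beside 22.3% higher and 18.5% lower over all genes tested, and no list was tested as a set. Of 34 adaptors and dynein regulators, 9 rose and 10 fell (median log2 change -0.07). *fez1*, a kinesin-1 adaptor of axons, fell by 0.55 on the log2 scale (adjusted p = 0.000243), with 185 to 246 CPM in *psap* KO and 294 to 335 CPM in WT brains, and *bicdl1*, which joins dynein to cargo, fell by 0.49 (adjusted p = 0.0033). *ninl*, a centrosomal dynein partner, rose (adjusted p = 0.000154), with 25 to 27.3 CPM in *psap* KO and 7.91 to 15.9 CPM in WT brains.

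Of 60 other microtubule-binding and plus-end proteins, 8 rose and 25 fell (median -0.20), beside 22.3% higher and 18.5% lower over all genes tested. *dclk1a*, a doublecortin-like kinase, fell by 0.90 on the log2 scale (adjusted p = 4.54e-07), with 77.9 to 85.5 CPM in *psap* KO and 144 to 158 CPM in WT brains, and *mid1* fell by 0.80 (adjusted p = 0.000533). The end-binding protein gene *mapre1a* rose by 1.43 (adjusted p = 9.93e-06), with 11.4 to 17.7 CPM in *psap* KO and 4.70 to 5.91 CPM in WT brains. *tppp*, which stabilizes microtubules in mammalian oligodendrocytes, rose by 6.11 (SE 1.00, adjusted p = 0.00283), with 3.92 to 42.4 CPM in *psap* KO and 0.233 to 0.308 CPM in WT brains, so its *psap* KO libraries differed among themselves by far more than its WT libraries did.

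Microtubule severing genes rose in 3 of 8 cases and fell in none, with rises of 0.78 for *katna1* and 1.05 for *katnal2* on the log2 scale (adjusted p = 0.00425 and 0.00697), which encode a katanin subunit and a relative of it. Of 31 genes for tubulin folding and modification, 7 rose and 2 fell (median 0.09). Over all genes tested 22.3% were higher and 18.5% lower, so the share of these 31 that rose was near that of all genes. The delta-tubulin gene *tubd1*, of centrioles, rose by 1.25 (adjusted p = 6.68e-06), with 8.85 to 10.8 CPM in *psap* KO and 3.98 to 4.48 CPM in WT brains, and *ttll6*, an enzyme that adds glutamates to ciliary tubulin, rose by 1.17 (adjusted p = 0.000319). The tubulin acetyltransferase gene *atat1* fell by 0.36 (adjusted p = 0.00837) and *vash2*, whose product removes the last tyrosine of alpha-tubulin, fell by 0.23 (adjusted p = 0.0166).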

How the data were processed

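RNA of 8 pools of 3 zebrafish brains (4 *psap* KO, 4 WT siblings) was sequenced as stranded, rRNA-depleted libraries. The deposited values used here are the authors' raw counts per gene. Per the labels and methods, the authors removed optical duplicates, trimmed adapters (cutadapt 1.16), aligned reads (STAR 2.6.1b) to a genome the methods call Zv10 with Ensembl release 94 features, and counted with featureCounts 1.6.3. The authors' DESeq2 1.22.2 fold changes, p-values and mean normalized counts, and their normalized and regularized log values, were not used. Whether the counting used strand, and how reads that match several genes were treated, is not given in the sources used here, so the counts of the 18 genes that overlap another gene on the other strand are uncertain. Besides the genes marked above, *kif16ba*, *kif3ca*, *kifc3*, *klc1a*, *dync1li2*, *dync2li1* and *tubb2b* passed and have such an overlap. The same holds for the counts of 10 genes that overlap another gene on the same strand, of which *kif26aa*, *tubb5* and *tubg1* passed. No column belonged to another series. Gene positions come from the deposited annotation, which names no build.

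In R 4.3.3, edgeR 4.0.16 (TMM scaling, filterByExpr by genotype, which left out 1731 genes, robust quasi-likelihood test) was run on all 8 libraries and 21140 genes, with Benjamini-Hochberg adjustment and a threshold of 0.05. CPM use the TMM factors. Single values were compared with an exact two-sided permutation test, and for genes of log2 CPM with a prior count of 2. The main edgeR fit was tested on simulated counts with few genes changed, as many raised as lowered. That differs from these data, where 40.8% of genes passed. The other steps were not tested in this way. Alternatives were RLE scaling (the size factor method of DESeq2, run in edgeR), scaling to the upper quartile, no filter on low counts, a mean count of at least 50, DESeq2 1.42.0, limma-voom (limma 3.58.1), a term for the replicate number, and leaving out each library. The methods call the 4 pools of a genotype biological replicates.

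Genes were named by a rule: in each class the 5 largest rises and 5 largest falls with an adjusted p under 0.05 and an average log2 CPM of at least 1, the gene with the highest CPM, and a set of genes picked for their known role, of which 38 were found. For the related lists these were the 2 largest rises and 2 largest falls. Genes named beyond it were chosen after their values were seen. The genes and lists were chosen with earlier results of these data known. Of the genes under this rule, 2 are not reported here. Read sequences and alleles were not analysed here.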

Additional observations from a re-analysis of the deposited data

Results flagged for a closer look

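In 114 groups of 4 libraries, of the named genes and of the class sums, a library far from the other 3 by Dixon's test was found in 5, and chance gives about 1 in 20 groups. For *kif6*, WT replicate 1 had 2.21 CPM against 1.48 to 1.58 CPM in the other WT libraries. For *dctn1a*, *psap* KO replicate 3 had 65.3 CPM against 56.5 to 57.8 CPM in the other *psap* KO libraries. For the dynein light chain *dynll1*, *psap* KO replicate 4 had 77.1 CPM against 71.5 to 71.8 CPM in the others. For *tubb2*, *psap* KO replicate 4 had 136 CPM against 75.1 to 84.4 CPM, and leaving it out changed the call. For *map1aa*, WT replicate 1 had 960 CPM against 1017 to 1026 CPM in the other WT libraries.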

How the results depend on the processing

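Of the 40 calls among the 102 genes, 24 held under each of the 15 alternatives that tested them (*tubb6* had too few counts for the mean count of at least 50) and 16 were lost under at least 1. The split of 16 higher and 24 lower was 12 and 29 with RLE scaling, 18 and 20 with upper-quartile scaling, 15 and 24 with no filter, 16 and 22 with a mean count of at least 50, 14 and 30 with DESeq2, and 17 and 27 with limma-voom. The split over all genes moved too. In the same order, the shares higher and lower were 21.3 and 19.9%, 24 and 16.4%, 21 and 17.2%, 24.2 and 20.8%, 21.5 and 20.6%, and 22.2 and 18.7%. Without 1 library the higher genes numbered 11 to 15 and the lower 18 to 29, beside 19.7 to 21.2% and 15.6 to 18.1% of all genes. By class, without 1 library, the higher genes numbered 2 to 5 among kinesins, 2 to 4 among dynein and dynactin genes and 1 to 3 among associated proteins, and the lower genes 0 to 2 among dynein and dynactin genes and 0 to 6 among tubulins. The main count of 1 lower dynein gene was 2 with RLE scaling, 0 with upper-quartile scaling, 0 with a mean count of at least 50 and 2 with DESeq2. The main count of 3 lower tubulins was 5 with RLE scaling and 5 with DESeq2. Among the named genes the sign turned only for 3 that did not pass: the log2 fold change of *kif23* was 0.0016 with upper-quartile scaling and, without 1 library, ran from -0.34 to 0.11 for *kif23*, from -0.13 to 0.016 for *dync1h1* and from -0.12 to 0.19 for *tuba1b*, and the cause was not tested. For the 52 named genes, 675 of the values kept direction and side of the threshold, 74 lost a call and 22 gained one.

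*psap* KO and WT libraries that share a replicate number deviated together weakly (correlations 0.0575, 0.0705, 0.133 and 0.167). The main test therefore did not take the numbers as pairs. Replicates 3 and 4 of each genotype correlated best with their own number. Replicates 1 and 2 correlated best with replicate 1 or 2 of the other genotype. By chi-square per degree of freedom, WT replicates 1 and 2 lay close (5.33), as did 3 and 4 (5.21), against 10.45 to 13.8 across. The *psap* KO libraries did not divide so: replicates 3 and 4 had 17.9, and 2 and 3 had 7.25. The paper states that WT and KO samples were handled in turn, and the library labels alternate too. Whether the order of processing shaped these values was not tested. With a replicate block 18 genes were higher and 33 lower (23.2% and 21% of all genes), with 3 lower dynein genes and 6 lower tubulins, and *stmn4l* was no longer called. Depth limits the low genes most: *kif6* had 22 to 79 counts a library and *tubb6* 6 to 56.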
